A study of Saccharomyces cerevisiae with 18 samples.

Results

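Transcripts of 10 genes that code for enzymes, or enzyme subunits, of the mitochondrial tricarboxylic acid (TCA) cycle were followed across strains of Saccharomyces cerevisiae that differ at RXT3 or PHO23. They are CIT1, ACO1, IDH1, IDH2, KGD1, KGD2, LSC1, LSC2, FUM1 and MDH1, a list of names that uses no measured value but was drawn up with earlier results of these data known. These are 10 of the 6650 named ORFs in the deposited table, and all 10 had a value in every column. All strains were built in BY4741, a laboratory strain, and were grown in rich YP medium with the pentose xylulose to log phase. The 6 groups of 3 libraries had RXT3 deleted, RXT3 replaced by the allele of strain T73, RXT3 replaced by the allele of strain CLIB215, PHO23 deleted, PHO23 replaced by the T73 allele, and PHO23 replaced by the CLIB215 allele. Both genes code for proteins of Rpd3L, the larger of the complexes built around the histone deacetylase Rpd3. Whether the libraries of a group came from separate cultures or clones is not given. Unmodified BY4741 is not analysed here, so every comparison is between edited strains.

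The TCA cycle condenses acetyl-CoA with oxaloacetate to citrate and oxidises it back to oxaloacetate in the mitochondrial matrix. It delivers NADH and reduced flavin to the respiratory chain, and 2-oxoglutarate to glutamate synthesis. In yeast its genes are repressed by glucose and activated by the Hap complex, which binds CCAAT elements. When respiration is impaired, expression of CIT1, ACO1, IDH1 and IDH2 depends instead on the retrograde factors Rtg1 and Rtg3, which keeps 2-oxoglutarate supplied.

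The table gives 1 log value per ORF and group, and values of an ORF lie around 0. What the 0 stands for is not stated, and it is not the mean of the 6 columns. The base of the logarithm is not stated, and base 2 is assumed. No spread between replicates can be given, so no difference below has a test or a replicate check, and "higher" and "lower" describe these 6 columns. A value is neither a level nor a change against an unedited strain, and values of different genes show only how each gene varied over the columns. Differences between columns do not depend on the 0. Depth per library is unknown. Counts of members are set beside the same share over the 4956 ORFs with a value in all 6 columns, called complete ORFs.

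Groups follow the sample titles. In the genotype field 3 of the groups carry another name: RXT3 T73, RXT3 CLIB215 and PHO23 deleted. PHO23 had no value in the column titled PHO23 deleted and had −0.07 in the column titled RXT3 T73, which the genotype field calls the PHO23 deletion. RXT3 had −0.05 in the column labelled RXT3 deleted, so its deletion was not visible there. Of the genes that BY4741 is known to lack, LEU2 and MET17 had no value in any column, URA3 had one in the PHO23 T73 column alone (−1.19), and HIS3, whose deletion in BY4741 is partial, had one in all 6, between −0.64 and 0.49. Over complete ORFs the values were most spread in 2 columns, PHO23 deleted (SD 0.421) and PHO23 CLIB215 (SD 0.422), and the SDs of the other 4 ran from 0.282 to 0.319.

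The cycle enzyme genes varied little over the 6 strains. The range of a gene, its highest minus its lowest column, ran from 0.22 for LSC1 to 0.66 for KGD1, with a median of 0.41. The median range of the complete ORFs was 0.76, and all 10 cycle genes lay below it, where 50% of complete ORFs lie by definition. None had a range of 1 or more, against 30.3% of complete ORFs. The range does not depend on which label names a column. In sequencing data it also holds counting noise, which is larger for weakly expressed genes. The table gives no levels, so the cycle genes could not be set against genes of like expression, and the part of abundance in their narrow range was not tested.

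**Figure D1:**
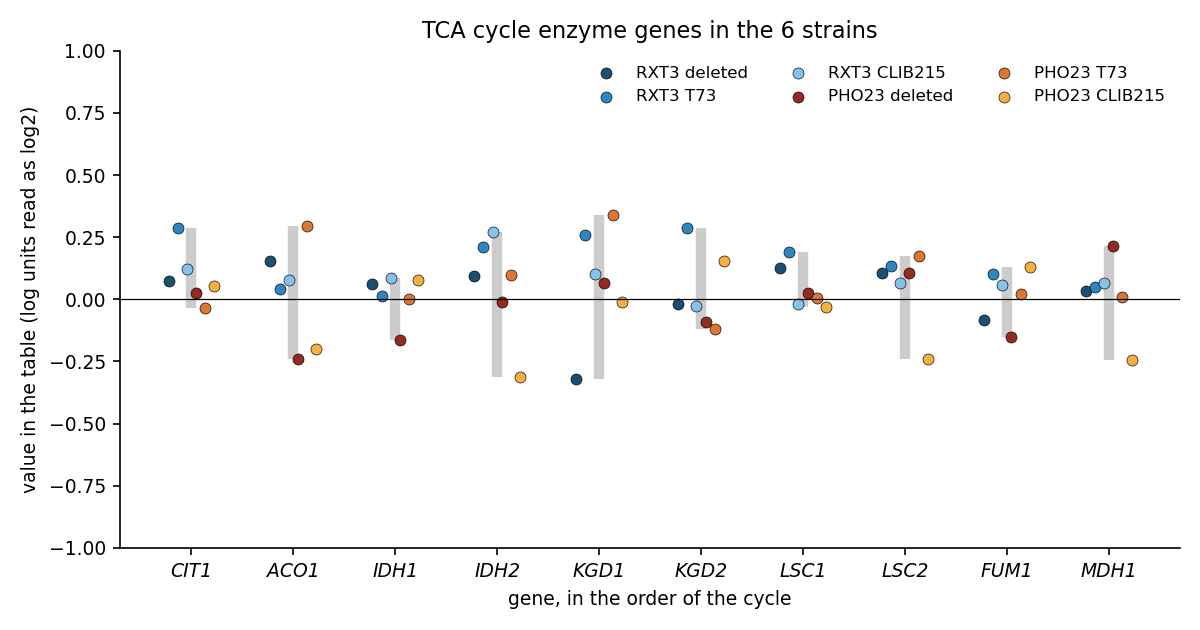
Value (log units read as log2) of each of the 10 cycle enzyme genes in the 6 strains, 1 point per strain and gene, with a grey bar from the lowest to the highest. All values lie between −0.32 and 0.34, and the lowest point of IDH2, LSC1, LSC2 and MDH1 is the PHO23 CLIB215 strain.

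The first steps of the cycle lead from acetyl-CoA to 2-oxoglutarate. CIT1 (YNR001C, chromosome XIV, 629622 to 631061, minus strand, build R64 here and below) encodes the mitochondrial citrate synthase. It had 0.07 with RXT3 deleted, 0.29 with RXT3 T73, 0.12 with RXT3 CLIB215, 0.03 with PHO23 deleted, −0.03 with PHO23 T73 and 0.05 with PHO23 CLIB215. The RXT3 T73 strain was the highest and the other 5 lay close together. The range of CIT1, 0.32, was at percentile 5.67 of complete ORFs.

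ACO1 (YLR304C, chromosome XII, 735212 to 737548, minus strand) encodes aconitase, an iron-sulfur enzyme that turns citrate into isocitrate and is also needed to maintain mitochondrial DNA. Its values were 0.16, 0.04 and 0.08 with RXT3 deleted, T73 and CLIB215, and −0.24, 0.29 and −0.20 with PHO23 deleted, T73 and CLIB215. ACO1 was thus highest with the PHO23 T73 allele and lowest in the other PHO23 strains, with the RXT3 strains between. Its range was 0.53, at percentile 24.4.

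IDH1 (YNL037C, chromosome XIV, 557920 to 559002, minus strand) and IDH2 (YOR136W, chromosome XV, 580250 to 581359, plus strand) encode the regulatory and the catalytic subunit of the NAD-dependent isocitrate dehydrogenase. IDH1 had 0.06, 0.02 and 0.09 with RXT3 deleted, T73 and CLIB215, and −0.16, 0.0007 and 0.08 with PHO23 deleted, T73 and CLIB215. Only the PHO23 deletion stood below the rest at IDH1. IDH2 had 0.09, 0.21 and 0.27 in the same RXT3 strains, and −0.01, 0.10 and −0.31 with PHO23 deleted, T73 and CLIB215. At IDH2 it was the PHO23 CLIB215 strain that stood lowest. The ranges were 0.25 for IDH1 (percentile 2.68) and 0.58 for IDH2 (percentile 29.9).

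The next steps turn 2-oxoglutarate into succinate. KGD1 (YIL125W, chromosome IX, 122689 to 125733, plus strand) encodes the dehydrogenase component of the 2-oxoglutarate dehydrogenase complex. It had −0.32, 0.26 and 0.10 with RXT3 deleted, T73 and CLIB215, and 0.06, 0.34 and −0.01 with PHO23 deleted, T73 and CLIB215. The column labelled RXT3 deleted stood well below the other 5, and both T73 alleles gave the highest values. This range of 0.66 was the widest of the 10 genes, yet only at percentile 38.9 of complete ORFs.

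KGD2 (YDR148C, chromosome IV, 753675 to 755066, minus strand) encodes the transsuccinylase of the same complex, which carries lipoic acid. It had −0.02, 0.29 and −0.03 with RXT3 deleted, T73 and CLIB215, and −0.09, −0.12 and 0.15 with PHO23 deleted, T73 and CLIB215. KGD2 was highest with RXT3 T73, but unlike KGD1 it was lowest with PHO23 T73. Its range was 0.40.

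LSC1 (YOR142W, chromosome XV, 593057 to 594046, plus strand) and LSC2 (YGR244C, chromosome VII, 978036 to 979319, minus strand) encode the alpha and beta subunits of succinyl-CoA ligase, which makes ATP in the matrix. LSC1 had 0.13, 0.19 and −0.02 with RXT3 deleted, T73 and CLIB215, and 0.02, 0.0049 and −0.03 with PHO23 deleted, T73 and CLIB215. LSC2 had 0.11, 0.14 and 0.06 in the same RXT3 strains, and 0.11, 0.18 and −0.24 with PHO23 deleted, T73 and CLIB215. LSC1 was the least variable of the 10, at percentile 1.78, while LSC2 was low in the PHO23 CLIB215 strain and even elsewhere, with a range of 0.42.

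The last steps regenerate oxaloacetate. FUM1 (YPL262W, chromosome XVI, 47336 to 48802, plus strand) encodes fumarase, from 1 gene for both the mitochondrial and the cytosolic enzyme. It had −0.08, 0.10 and 0.06 with RXT3 deleted, T73 and CLIB215, and −0.15, 0.02 and 0.13 with PHO23 deleted, T73 and CLIB215. Both columns labelled as deletions were the lowest at FUM1, within a range of 0.28. MDH1 (YKL085W, chromosome XI, 279123 to 280127, plus strand) encodes the mitochondrial malate dehydrogenase. It had 0.03, 0.05 and 0.07 in the same RXT3 strains, and 0.22, 0.01 and −0.25 with PHO23 deleted, T73 and CLIB215. MDH1 was even in 4 strains, highest with PHO23 deleted and lowest with PHO23 CLIB215, over a range of 0.46.

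By strain, the median of the 10 genes was 0.07 with RXT3 deleted, 0.16 with RXT3 T73, 0.07 with RXT3 CLIB215, 0.0056 with PHO23 deleted, 0.01 with PHO23 T73 and −0.02 with PHO23 CLIB215. The median of all complete ORFs was 0.04 with RXT3 deleted, 0.04 with RXT3 T73 and 0.02 with RXT3 CLIB215. It was 0.01 with PHO23 deleted, 0.05 with PHO23 T73 and −0.02 with PHO23 CLIB215.

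Genes for subunits of the same enzyme were not the closest pairs by the measure used here. Likeness was measured as the root-mean-square difference of 2 genes over the 6 columns, after each gene's own mean was subtracted. Among the 45 pairs of cycle genes, LSC1 and LSC2 ranked 10th (0.122), IDH1 and IDH2 26th (0.202) and KGD1 and KGD2 42nd (0.245). The closest pairs joined different enzymes: CIT1 with LSC1 (0.0730), IDH1 with FUM1 (0.0731) and CIT1 with KGD2 (0.0831). These ranks turn on small differences, with no replicate error to set them against. The measure is not scaled for range, so a gene of wide range lies far from most others whatever the shape of its profile. KGD1, with the widest range, had its closest partner, FUM1, only at rank 25.

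The difference KGD1 minus KGD2 was −0.30 with RXT3 deleted, −0.03 with RXT3 T73, 0.13 with RXT3 CLIB215, 0.15 with PHO23 deleted, 0.46 with PHO23 T73 and −0.16 with PHO23 CLIB215. It thus spanned more than either gene alone. IDH1 minus IDH2 lay between −0.20 and −0.03 in 5 strains and was 0.39 in the PHO23 CLIB215 strain. LSC1 minus LSC2 lay between −0.17 and 0.06 in 5 strains and was 0.21 in that same strain. At both enzymes the departure came from the second-named gene, IDH2 or LSC2, which was low there.

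Next, the strains were compared in pairs, in 9 comparisons that share columns and are therefore not independent. A difference of 1 unit (2-fold if the base is 2) was counted. None of the 90 differences reached 1, and 3 of the 90 reached 0.5, against 5.43% and 26.8% of the differences of all complete ORFs. The largest was 0.58. For scale, the central 95% of ORFs in the least different pair of columns, RXT3 deleted and RXT3 CLIB215, lay between −0.82 and 0.82, and none of the 90 was outside this range. The median absolute difference was 0.113 for the cycle genes and 0.283 for the complete ORFs.

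**Figure D2:**
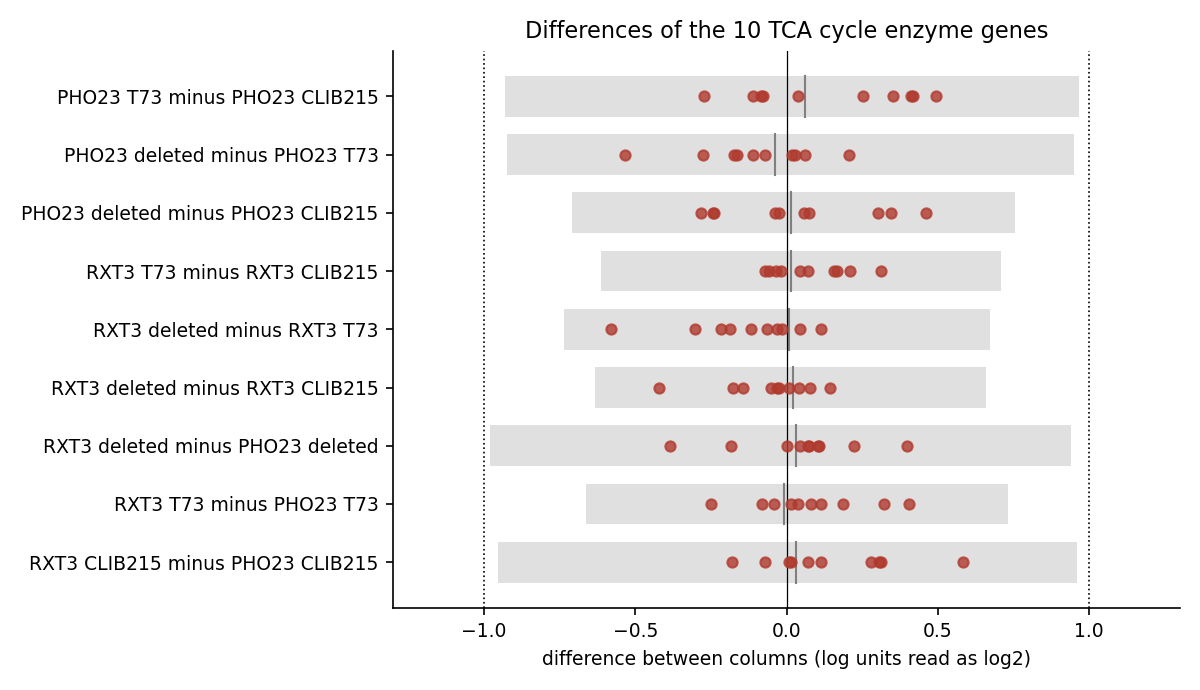
Differences between 2 columns (log units read as log2) in 9 comparisons, with the 10 cycle enzyme genes as red points. Grey bars span percentiles 5 to 95 of the 4956 complete ORFs, a grey tick marks their median, and dotted lines mark 1 and −1. Every red point lies inside its grey bar.

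The comparison of the PHO23 alleles addresses the effect of natural variation at that gene. Of the 10 cycle genes, 6 were above 0 (T73 minus CLIB215), near the 54.6% of complete ORFs. None differed by 1 (8.8% of complete ORFs) or by 0.5 (34.6%). ACO1 was 0.29 with T73 and −0.20 with CLIB215, a difference of 0.50 (0.495 before rounding), and 35.1% of complete ORFs differed at least as much. LSC2 differed by 0.42, IDH2 by 0.41, KGD1 by 0.35 and MDH1 by 0.25, all higher with T73. In the other direction KGD2 differed by −0.27, FUM1 by −0.11, CIT1 by −0.09 and IDH1 by −0.08, and LSC1 differed by 0.04. The median was 0.15, against 0.06 for complete ORFs, and it rests on a gap in the middle of the 10 values: leaving out a single gene moved it to 0.04 or to 0.25.

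Loss of PHO23 was then set against each allele. Against T73, 4 of 10 cycle genes were above 0 with PHO23 deleted (46.9% of complete ORFs) and the median was −0.09. None reached 1, where 8.47% of complete ORFs did. ACO1 was −0.24 with PHO23 deleted and 0.29 with T73, a difference of −0.53, the only one of the 10 past 0.5, where 33.3% of complete ORFs were. KGD1 followed at −0.28, and MDH1 was the highest at 0.21. Against CLIB215, 5 of 10 were above 0 (51.4% of complete ORFs) and the median was 0.02. None reached 1 (3.21% of complete ORFs) or 0.5 (23.6%). MDH1 differed by 0.46, LSC2 by 0.35 and IDH2 by 0.30, while FUM1 was lowest at −0.28, KGD2 and IDH1 differed by −0.24 and ACO1 by −0.04.

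At RXT3 the T73 allele had 6 of 10 cycle genes above the CLIB215 allele (51.6% of complete ORFs), with a median of 0.06 and none at 1 (2.2% of complete ORFs) or at 0.5 (19.5%). The highest was KGD2 at 0.31 and the lowest IDH1 at −0.07. By title, the genes from 2-oxoglutarate onwards were above 0 for 5 of 6, and those from citrate to 2-oxoglutarate for 1 of 4. This split was not kept by the genotype field. There CIT1 (0.10), ACO1 (0.32), IDH1 (0.25) and IDH2 (0.28) were all above 0. Of the later genes, KGD1 (0.04), KGD2 (0.06) and FUM1 (0.21) were above, and LSC1 (−0.04), LSC2 (−0.04) and MDH1 (−0.15) below.

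In the column labelled RXT3 deleted, 2 of 10 cycle genes were above RXT3 T73, where 51.1% of complete ORFs were, and the median was −0.09. None reached 1 (2.89% of complete ORFs). All 6 genes from KGD1 to MDH1 were lower, led by KGD1, which was −0.32 in the column labelled RXT3 deleted and 0.26 with T73. That difference of −0.58 was the only one past 0.5 here (21.6% of complete ORFs), and 16.2% of complete ORFs differed at least as much as KGD1. KGD2 followed at −0.30, CIT1 at −0.22 and FUM1 at −0.19, while MDH1 (−0.02) and LSC2 (−0.03) were close to 0. Against RXT3 CLIB215, 4 of 10 were above 0 (53% of complete ORFs), the median was −0.03, and none reached 1 (2.32% of complete ORFs) or 0.5 (17.9%). KGD1 was again the lowest, at −0.42, and both differences use the same low value of KGD1. The next lowest was IDH2 at −0.18, and LSC1 was the highest at 0.15. With columns named by the genotype field, RXT3 deleted minus RXT3 T73 was above 0 for ACO1 (0.08), KGD2 (0.01), LSC1 (0.15) and LSC2 (0.04). The genes from KGD1 to MDH1 were thus all lower by title only.

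Like edits at the 2 loci were also set side by side. Between the columns labelled RXT3 deleted and PHO23 deleted, 7 of 10 cycle genes were above 0 (52.4% of complete ORFs), with a median of 0.07 and none at 1 (9.02% of complete ORFs) or at 0.5 (35.8%). ACO1 was highest at 0.40 and KGD1 lowest at −0.38. Between the T73 alleles, RXT3 minus PHO23, 7 of 10 were above 0 (49.2% of complete ORFs), the median was 0.06 and none reached 1 (3.05% of complete ORFs) or 0.5 (20.3%). KGD2 was highest at 0.40, CIT1 followed at 0.32, and ACO1 was lowest at −0.25.

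Between the CLIB215 alleles, RXT3 minus PHO23, 8 of 10 cycle genes were above 0 (52.5% of complete ORFs), with a median of 0.09 and none at 1 (8.96% of complete ORFs). IDH2 was 0.27 with RXT3 CLIB215 and −0.31 with PHO23 CLIB215. Its difference of 0.58 was the largest of all 90, and the only one past 0.5 here (35% of complete ORFs), and 28.1% of complete ORFs differed at least as much. MDH1 and LSC2 (both 0.31) and ACO1 (0.28) followed, and KGD2 was lowest at −0.18.

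With the 3 disputed columns named by the genotype field, none of the 90 differences could reach 1, since no cycle gene had a range above 0.66. The median of the 10 genes was then 0.06 for PHO23 deleted minus PHO23 T73, 0.07 for RXT3 deleted minus RXT3 CLIB215 and −0.09 for RXT3 deleted minus PHO23 deleted, each opposite in sign to the value by title. It was 0.24 for PHO23 deleted minus PHO23 CLIB215, where IDH2 alone passed 0.5 (0.52). KGD1 alone passed it in RXT3 deleted minus PHO23 deleted (−0.58), and no cycle gene did in the other 7 comparisons. The median was −0.03 for RXT3 deleted minus RXT3 T73 and 0.02 for RXT3 CLIB215 minus PHO23 CLIB215. The comparison of the PHO23 alleles is the same under both namings. The low value of KGD1 lies in the column that both fields label RXT3 deleted, and it was lowest there whichever way the others are named.

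The narrow ranges were set beside 48 genes of 7 related lists. The other subunits of the mitochondrial cycle are those of succinate dehydrogenase, SDH1 to SDH4, with KGD4 and LPD1, which complete the 2-oxoglutarate dehydrogenase complex. All 6 were higher with the PHO23 T73 allele than with CLIB215, from 0.24 for KGD4 to 0.82 for the flavoprotein subunit gene SDH1, with a median of 0.49, against 6 of 10 and 0.15 for the cycle genes. SDH2, the iron-sulfur subunit gene, differed by 0.73 and SDH3 by 0.48. None of the 6 reached 1, and their ranges had a median of 0.62. Whether they differ from the 10 cycle genes could not be tested without replicates.

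Isozyme genes outside the core of the cycle, or with another role, varied more. A range of 1 or more was seen in 5 of 7, against 30.3% of complete ORFs, and the median range was 1.19. MDH3 went the other way, with a range of 0.33. The part of abundance in this contrast was not tested, as the table gives no levels. CIT2, the peroxisomal citrate synthase gene and a target of the retrograde factors, had −1.06 with PHO23 T73 and 0.14 with PHO23 CLIB215, a difference of −1.20 where CIT1 differed by −0.09. IDP2, the cytosolic NADP-dependent isocitrate dehydrogenase gene, had 0.92 and −0.71 in the same strains, a difference of 1.62 where IDH1 differed by −0.08 and IDH2 by 0.41. CIT2 and IDP2, named because they passed 1, thus stood apart from the cycle genes of their steps by more than 1 unit in this comparison. The rest of the isozyme list did not pass 1 there: CIT3 differed by −0.78, IDP1 by 0.33, IDP3 by −0.51, MDH2 by 0.83 and MDH3 by −0.10.

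The other isozyme genes past 1 unit were seen in other comparisons. MDH2, the cytosolic malate dehydrogenase gene, had −0.30 with PHO23 deleted and 0.89 with PHO23 T73, a difference of −1.19, where MDH1 differed by 0.21. In that comparison IDP2 differed by −1.56. CIT3, the methylcitrate synthase gene, differed by 1.11 between RXT3 T73 and PHO23 T73, and CIT2 by 1.65. IDP1, the mitochondrial NADP-dependent isocitrate dehydrogenase gene, differed by 1.57 between RXT3 CLIB215 and PHO23 CLIB215, and IDP2 by 1.08. Between the columns labelled RXT3 deleted and PHO23 deleted, IDP2 differed by 1.20. With columns named by the genotype field, these differences were smaller: between PHO23 deleted and PHO23 T73 MDH2 differed by −0.55 and IDP2 by −0.87, while CIT2 (1.65) and CIT3 (1.11) passed 1 there. Between the T73 alleles CIT2 then differed by 1.29 and CIT3 by 0.89, between the CLIB215 alleles IDP1 by 0.53 and IDP2 by 0.07, and between the columns then named as deletions IDP2 by 0.51. Further isozyme differences passed 1 only by the genotype field. For RXT3 T73 minus PHO23 T73 they were MDH2 (−1.17) and IDP1 (1.24). For RXT3 T73 minus RXT3 CLIB215 they were IDP1 (1.03) and IDP2 (1.02), and for RXT3 deleted minus RXT3 CLIB215 IDP2 (1.20). How reads that match more than 1 gene of such a family were assigned is not given in the sources used here.

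**Figure D3:**
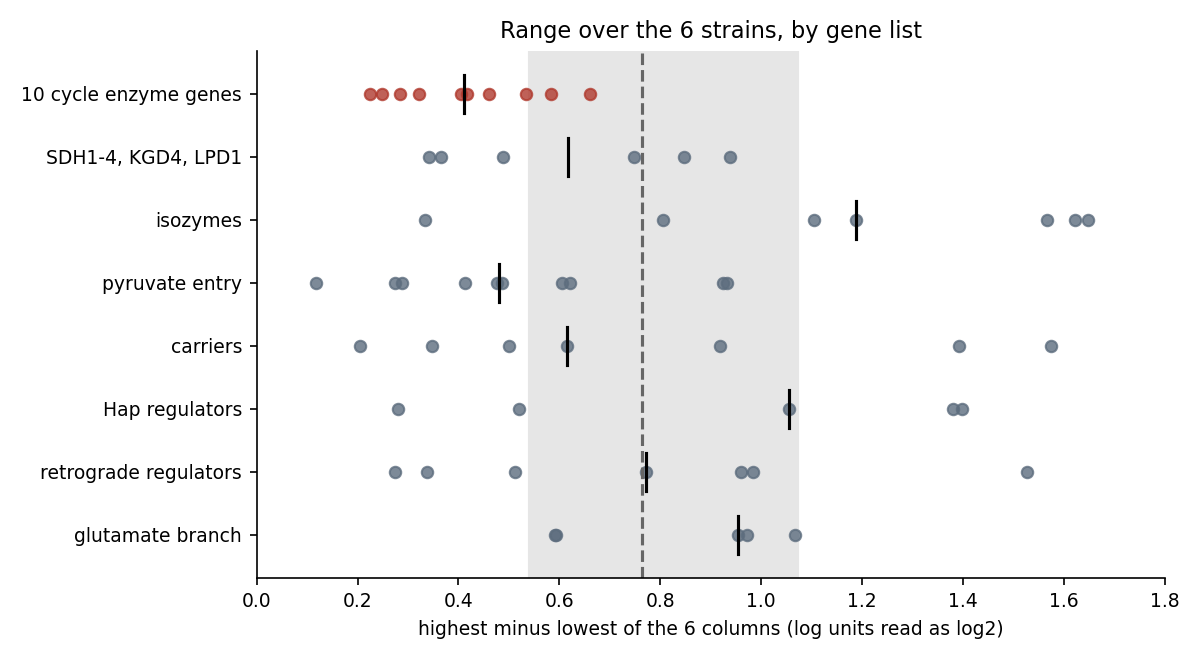
Range over the 6 strains (highest minus lowest column, log units read as log2) of each gene, by list, with a black tick at the list's median. The grey band spans percentiles 25 to 75 of the 4956 complete ORFs and the dashed line is their median of 0.76. All 10 cycle enzyme genes lie left of it, as do 8 of 10 genes of pyruvate entry and 1 of 7 isozyme genes.

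Genes of pyruvate entry, which code for the mitochondrial pyruvate carrier, pyruvate dehydrogenase, pyruvate carboxylases and malic enzyme, were also narrow. Their median range was 0.48, 8 of 10 were below the median of complete ORFs and none reached 1. Between the PHO23 alleles they ran from −0.08 for LAT1, the acetyltransferase gene of pyruvate dehydrogenase, to 0.56 for the carrier gene MPC3. Among carriers of cycle intermediates, 2 of 7 (28.6%) had a range of 1 or more, near the 30.3% of complete ORFs. SFC1, the succinate-fumarate carrier gene, had 1.04 with PHO23 T73 and −0.54 with PHO23 CLIB215, a difference of 1.58, and it differed by −1.45 between PHO23 deleted and PHO23 T73. The lowest carrier between the PHO23 alleles was OAC1, the oxaloacetate carrier gene, at −0.43. DIC1, the dicarboxylate carrier gene, differed by −1.33 between PHO23 deleted and T73, by 1.04 between RXT3 deleted and RXT3 CLIB215 and by 1.39 between RXT3 deleted and PHO23 deleted. By the genotype field the difference of SFC1 was −0.97 between PHO23 deleted and T73, and those of DIC1 in the same 3 comparisons were −0.15, 1.39 and 0.21.

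Among regulators of the cycle genes, the median range was 1.06 for the 5 Hap genes and 0.77 for the 7 complete genes of the retrograde pathway, against 0.41 for the cycle genes and 0.76 for complete ORFs. A range of 1 or more was seen in 3 of the 5 Hap genes and 1 of the 7 retrograde genes, where 30.3% of complete ORFs had one. As levels are not given, the part of abundance in the wider ranges of regulators was not tested either. HAP4, the activating subunit whose amount limits the Hap complex, had a range of 0.28 and differed by −0.01 between the PHO23 alleles. HAP2, a DNA-binding subunit, had 0.58 with PHO23 T73 and −0.80 with PHO23 CLIB215, a difference of 1.37, and differed by 1.38 between RXT3 CLIB215 and PHO23 CLIB215. HAP5, another such subunit, differed by −0.44 between the PHO23 alleles and by −1.05 between RXT3 CLIB215 and PHO23 CLIB215, opposite in sign to HAP2. HAP1, a haem-responsive activator outside that complex, had 0.76 with PHO23 T73 and −0.64 with PHO23 CLIB215, a difference of 1.40, and it differed by −1.09 between PHO23 deleted and T73. With columns named by the genotype field, HAP2 differed by 0.88 and HAP5 by 0.0014 between RXT3 CLIB215 and PHO23 CLIB215, and HAP1 by −0.26 between PHO23 deleted and T73.

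In the retrograde pathway, MKS1, a negative regulator, had 0.45 with PHO23 T73 and −1.07 with PHO23 CLIB215. That difference was 1.52, and MKS1 also differed by 1.27 between RXT3 CLIB215 and PHO23 CLIB215 (0.96 by the genotype field). Over the 48 related genes and the 9 comparisons, 21 differences reached 1 by title and 20 by the genotype field, 8 of them under both namings. Of the differences of all complete ORFs by title, 5.43% reached 1, and no excess over that share is claimed for the related genes. Outside the PHO23 alleles 15 reached 1 by title, and 2 of these 15 also did by the genotype field. Only by the genotype field, HAP1 (1.14), MKS1 (1.53) and the glutamate branch gene GDH3 (1.07) passed 1 for PHO23 deleted minus PHO23 CLIB215. So did HAP5 (−1.06) for RXT3 T73 minus RXT3 CLIB215 and DIC1 (1.04) for RXT3 deleted minus RXT3 T73. RTG3 was the lowest of the retrograde list between the PHO23 alleles, at −0.83, RTG2 differed by 0.11, and RTG1 had a value in 3 of 6 columns only. In the glutamate branch, which draws on 2-oxoglutarate, none of the 5 genes reached 1 between the PHO23 alleles, and they ran from −0.23 for GDH1 to 0.97 for the glutamate synthase gene GLT1.

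**Figure D4:**
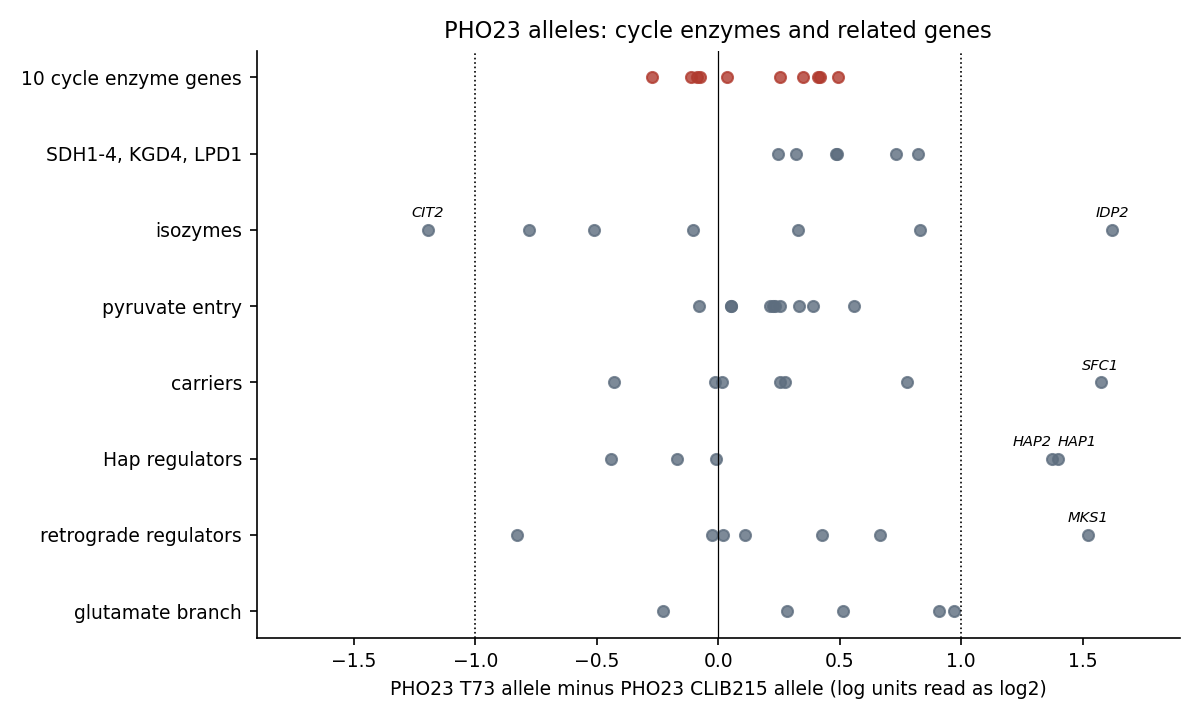
Difference between the PHO23 T73 and the PHO23 CLIB215 column (log units read as log2), 1 point per gene, by list, with dotted lines at 1 and −1. Names mark the 6 genes at or past 1 unit, of which none is among the 10 cycle enzyme genes, whose points run from −0.27 to 0.50.

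The region upstream of each cycle gene was searched for the core letters bound by these regulators, since these are the regulators known to act on them. The 500 bases before the start codon were read from the RefSeq R64 genome on both strands, for CCAAT (Hap complex) and GTCAC (Rtg1 and Rtg3). CCAAT was found before 8 of 10 cycle genes and before 62.4% of 6006 protein-coding genes. GTCAC was found before 6 of 10 cycle genes and before 42.5% of the 6006. No CCAAT match overlapped a GTCAC match. Both motifs are thus common before yeast genes, and a match is a description of letters, not a bound site.

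The CCAAT match nearest to the start codon is shown for each of the 8 genes that have one, along the coding strand, with 10 bases on each side. Capitals mark the match, which reads ATTGG where CCAAT lies on the other strand.
CIT1, chrXIV:631340-631364, minus strand: cttttgtgttATTGGaggatcgcaa
ACO1, chrXII:737741-737765, minus strand: catcaaacctCCAATcgctgccggt
IDH1, chrXIV:559132-559156, minus strand: cttccgcttcATTGGcttattcttg
IDH2, chrXV:580151-580175, plus strand: gcatgacattATTGGatacactttt
KGD1, chrIX:122428-122452, plus strand: gtttagattcATTGGgtgtgtacta
KGD2, chrIV:755384-755408, minus strand: ccggagtgagCCAATaaagcggcca
FUM1, chrXVI:47047-47071, plus strand: gcgttcgatgATTGGctctttcctg
MDH1, chrXI:278984-279008, plus strand: gttagcacgcATTGGgtgtttgtac

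LSC1 and LSC2 have no such letters in this window. Their ranges were 0.22 and 0.42, against 0.25 to 0.66 for the 8 genes shown. The GTCAC match nearest to the start codon is shown for the 3 of the 4 retrograde-controlled genes that have one, in the same format.
CIT1, chrXIV:631415-631439, minus strand: gctaaaaggcGTCACgtttttttcc
ACO1, chrXII:737984-738008, minus strand: aatgacgccgGTCACacgcgggtgc
IDH1, chrXIV:559343-559367, minus strand: ggcgtcatagGTCACtcatcaacca

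IDH2 has no GTCAC in the window, while KGD1, LSC2 and FUM1, outside the 4 genes under retrograde control, do. None of the 10 genes overlaps another annotated gene. For 8 of them the next gene downstream lies on the opposite strand and points towards them, 136 to 1005 bases away, and whether reads were counted by strand is not given in the sources used here.

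The complete ORFs whose profile lay closest to the mean of the 10 genes were searched last. The mean profile, with its own average subtracted, was −0.02, 0.12 and 0.04 with RXT3 deleted, T73 and CLIB215, and −0.06, 0.04 and −0.11 with PHO23 deleted, T73 and CLIB215, a range of 0.22. Among 4866 ORFs with at least this range, the closest by root-mean-square difference were PUP1, a proteasome subunit gene (0.0261), MTO1, a mitochondrial tRNA modification gene (0.0430), ALD4, the mitochondrial aldehyde dehydrogenase gene (0.0432), SUI2, a translation initiation factor gene (0.0464), and ADH1, an alcohol dehydrogenase gene (0.0519). The profile is shallow and rests on 6 columns, so that many ORFs lie close to it.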

How the data were processed

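Per the labels, RNA of 18 libraries (6 groups of 3) was fragmented, enriched for poly(A) and reverse transcribed with primers that hold a barcode and a unique molecular identifier. The submitters' processing notes name Bowtie and build R64. How values were filtered, counted, normalized and, where they were, centred is not given in the sources used here. The authors deposited 1 table of 6701 rows with 1 column of log values per group, read here as log2 and treated as the authors' pooled value. Of 208 ORFs with a value in a single column, 126 are exactly 0 (tolerance 1e-06) and 82 are not, so a centre per ORF is likely for many, but it is not the mean of the 6 columns.

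Differences between columns, ranges, medians and counts were computed with Python 3.11.15 and pandas 2.3.3 over ORFs complete in 6 columns. The counting code was run on simulated columns with planted differences far above their noise. That run checks the code only and says nothing about error in these data. The genes of the 8 lists all matched RefSeq symbols by ORF name. 1 gene of the isozyme list is not reported here. Members, lists and comparisons were chosen with earlier results of these data known. Related genes were named if they differed by 1 unit or more in a comparison by title, or were the highest or lowest of their list between the PHO23 alleles. SDH2, SDH3, IDP3, MDH3, HAP4, RTG2 and GDH3, and RTG1 for its missing values, were named after their values were seen. Alternatives covered column naming, centring, scaling, log base, size rule, ORFs used and members left out. Depth per library is unknown, so no counting interval can be given.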

Additional observations from a re-analysis of the deposited data

How the results depend on the processing

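No paired analysis was possible because the table has 1 column per group and no replicate numbers, and for the same reason no replicate could be left out. In all 9 comparisons the count of cycle genes at 1 unit or more was 0 under every alternative that keeps this rule: columns named by the genotype field, column medians subtracted, columns scaled to a common SD, natural logs, ORFs with a value in both columns, and each member left out. These counts could not be other than 0. The widest range of a cycle gene was 0.66 as reported and 0.95 with natural logs, the largest under these alternatives. They add no support to the first count. With a rule of 0.5 units the count was 1 in PHO23 deleted minus PHO23 T73, in RXT3 deleted minus RXT3 T73 and in RXT3 CLIB215 minus PHO23 CLIB215, and 0 in the other 6. By the genotype field it was 1 in PHO23 deleted minus PHO23 CLIB215 and in RXT3 deleted minus PHO23 deleted, and 0 in the other 7. A median was counted as moved if it changed by 0.1 or more. With columns named by the genotype field it moved in 4 comparisons, to 0.0606 for PHO23 deleted minus PHO23 T73, 0.24 for PHO23 deleted minus PHO23 CLIB215, 0.0715 for RXT3 deleted minus RXT3 CLIB215 and −0.0909 for RXT3 deleted minus PHO23 deleted. The sign changed in these except PHO23 deleted minus PHO23 CLIB215. Leaving out 1 member moved the median between the PHO23 alleles to 0.0377 or 0.254 and no other median. All 10 genes stayed below the median range of complete ORFs with any 1 of the 6 columns left out, with column medians subtracted, with columns scaled and with natural logs, alternatives chosen after seeing the data. Without the PHO23 CLIB215 column their median range was 0.27, against 0.67 for complete ORFs.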
